A study of Cristatella mucedo with 12 samples.

Results

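The central zone and the middle part are the inner tissues of 2 kinds of dissection of mature colonies of the freshwater bryozoan Cristatella mucedo, and their polyadenylated RNA is compared here over all gene models. By their titles, 4 of the 12 libraries of the series belong to this comparison: central zone replicates 1 and 2, and middle part replicates 2 and 3. All come from wildtype animals of isolate SBPEP1, taken from a freshwater stream and held in an aquarium at room temperature. Central zones were cut away from the edge zone of a colony, and middle parts from the end parts of colonies that the labels call elongated. The shape of the colonies in the first dissection, the age of either kind and the number of colonies per library are not given, so kind of colony, way of cutting and group cannot be told apart. Edge zone replicates 2 and 3 and end part replicates 1 and 3 are the outer tissues of the same dissections, and 4 further libraries hold 1 statoblast stage each.

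A freshwater bryozoan colony is built of genetically identical zooids that arise by budding and feed with a crown of ciliated tentacles. In Cristatella the colony is a gelatinous, creeping strip in which the zooids open in rows toward the margin, and the inner strip bears few feeding zooids. Statoblasts are dormant asexual buds enclosed in a hard capsule, from which a new colony grows. In whole tissue, fewer cells of a type and less RNA per cell cannot be told apart. The deposited table pairs names with identifiers for the 16 mitochondrial models alone, so neither tissue could be checked against marker genes, and nuclear loci are given by contig and position, numbered as in that table.

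The 4 libraries hold 26089274 and 20627380 counts for the central zone and 24070066 and 18970705 counts for the middle part, over 35949 gene models. Levels are given as CPM, counts scaled to the library total, in which 3 counts are worth 0.115 to 0.158 in these libraries. Over the 13503 models whose log2 CPM, scaled by TMM and averaged over the 8 mature libraries, was at least 1, the log2 levels of the central zone replicates correlated with r = 0.966, and 568 models differed between them by at least 2-fold. The middle part replicates correlated with r = 0.982, and 232 models differed by at least 2-fold. Between single libraries, the 4 pairs of a central zone with a middle part library had 750 to 1713 models at least 2-fold apart and 64 to 137 at least 4-fold apart. Within groups, 66 models were at least 4-fold apart between the central zone replicates and 19 between the middle part replicates. Central zone replicate 1 lay closer to end part replicate 1 (r = 0.987, 104 models at least 2-fold apart) than to the other central zone library. Central zone replicate 2 also lay closer to end part replicate 3 (r = 0.973, 372 models) and to end part replicate 1 (r = 0.969, 536 models) than to central zone replicate 1. These correlations run over models that share libraries and depth, and describe the libraries without a test. The part of a shared colony, batch or run in this closeness was not tested.

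In the fit over the 8 mature libraries, few gene models passed the test between the inner tissues, and nearly all of those were higher in the central zone. Fits over other sets of libraries passed more or fewer models, as given below. Of 18085 models tested with edgeR's quasi-likelihood test over the 8 mature libraries, 49 (0.271%) passed a Benjamini-Hochberg adjusted p of 0.05. The 47 higher models (0.26% of those tested) had median levels of 11.5 and 11.5 CPM in the central zone replicates, against 1.70 and 1.08 CPM in the middle part replicates. The other 2 models (0.0111%) were lower in the central zone. At an unadjusted p under 0.05 there were 2918 models (16.1%), 1648 of them higher and 1270 lower. Both libraries of one group lay above both of the other for all 49 called models, and for 47.2% of all models tested.

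**Figure D1:**
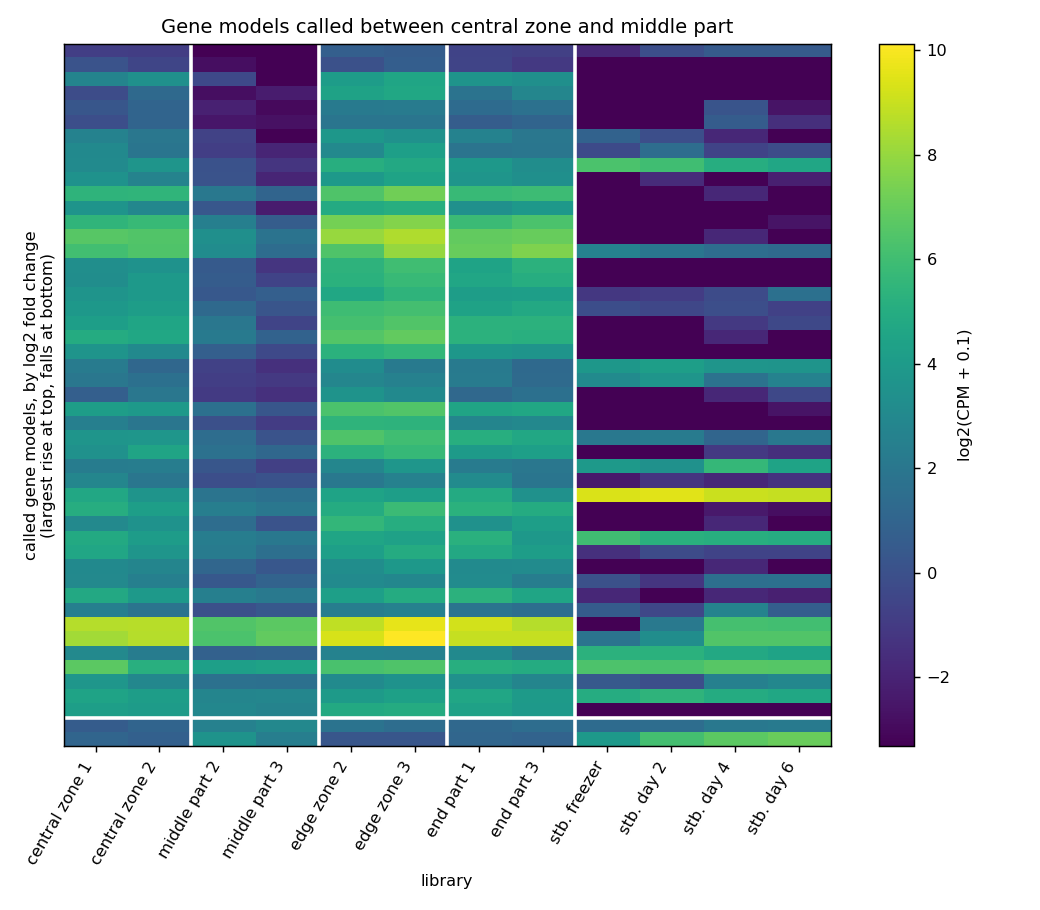
Level of each of the 49 called gene models (rows, ordered by fold change) in the 12 libraries (columns) as log2(CPM + 0.1). Each of the 47 upper rows is darker in both middle part columns than in either central zone column, whatever its level. Their middle part means are the lowest among the mature groups. The 2 lowest rows show the opposite order for central zone and middle part.

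Of the 47 higher models, 41 had a fitted difference of at least 4-fold, and in 28 the lower central zone library stood at least 4-fold above the higher middle part library. For the 42 models with more than 3 counts in the middle part, the log2 fold change ran from 1.38 to 4.60 with a median of 2.89. A single model, at bases 299014 to 313491 of contig 211, had 12 and 9 counts in the central zone and none in either middle part library, which is at least 6.45-fold higher against a floor of 3 counts over the group. The median over all 47 was 3.10, or 3.02 with that model at its bound, beside a median of 0.02 over all models tested. The 47 models lay on 31 contigs. Their median span was 5519 bases, against 10366 bases over all tested models, and 11 overlapped another model, so that reads of these 11 may belong to a partner. Counts with fractions, which can arise where reads are shared among features, occurred in 44 of the 47 and in 93.8% of the models tested.

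The count depended on which libraries entered. Without middle part replicate 3 the fit called 22 models (16 higher, 6 lower), of which 17 were among the 49, and without middle part replicate 2 it called 28, all higher, of which 27 were among them. It called 31 without edge zone replicate 2 and 32 without edge zone replicate 3, all higher. Without central zone replicate 1 it called 65 (62 higher, 3 lower), and without central zone replicate 2 it called 155 (108 higher, 47 lower). Without end part replicate 1 it called 444 (316 higher, 128 lower), and without end part replicate 3 it called 460 (329 higher, 131 lower). Each of the 49 kept the sign of its difference in all of these fits, and 15 were called in all 8 fits that leave out 1 library. All 15 were higher in the central zone, and 6 of them are neighbours among the tested models of contig 159. DESeq2's Wald test called 290 models, 230 higher and 60 lower.

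The largest rise under the naming rule was g21524, at bases 608246 to 611269 of contig 70. It had 6.64 and 10.5 CPM in the central zone replicates, against 0.686 and 0 CPM in the middle part replicates. Both central zone libraries stood above both middle part libraries, by a log2 fold change of 4.60 ± 0.63 (SE, n = 2 each, edgeR adjusted p = 0.00451). The call was made under each of the 17 other settings in which it was tried. The log2 fold change was 3.68 without middle part replicate 3, and without middle part replicate 2 the middle part was left at 0, where the fitted value is no bound. In whole reads this was 389 counts in the central zone and 16 in the middle part, all 16 of them in replicate 2, a ratio of depth-scaled levels of 22.4 (95% interval 13.6 to 39.6, counting error only). The same model had 17.3 and 23.7 CPM in edge zone tissue, 12.2 and 10.3 CPM in the end part, and no count in the 4 statoblast libraries.

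The next, g29152, lies at bases 2848550 to 2855587 of contig 37. It had 0.776 and 2.32 CPM in the central zone, which are 20 and 48 counts, against 1 and 2 counts in the middle part. Scaled for depth, the central zone stood 20.9-fold above the middle part (95% counting interval 6.85 to 103.8), and edgeR gave an adjusted p of 0.0445. It was far more abundant in the outer tissues, at 21.1 and 25.8 CPM in the edge zone and 3.39 and 6.98 CPM in the end part. The naming rule asked for a mean log2 CPM of at least 1 over the 8 mature libraries, where this model had 3.17. Its outer levels entered that mean, while its mean was 1.55 CPM in the central zone and 0.0735 CPM in the middle part. The edgeR call was lost without central zone replicate 2, without either middle part library and without either edge zone library, with adjusted p between 0.0677 and 0.388. Its log2 fold change was 4.40 over all 8 libraries, 5.11 without central zone replicate 1, 3.27 without central zone replicate 2 and 5.03 without middle part replicate 3.

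Both lower models had more CPM in each middle part library than in any other mature library. The model g16271, at bases 9043825 to 9052080 of contig 2, had 1.96 and 1.62 CPM in the central zone, against 11.97 and 5.30 CPM in the middle part. Its groups did not overlap, and the log2 fold change was -2.24 ± 0.41 (SE, n = 2 each, edgeR adjusted p = 0.0352). It had 1.09 and 1.12 CPM in the edge zone and 2.03 and 1.86 CPM in the end part, but 15.0 CPM in frozen statoblasts and 69.0, 107.0 and 132.1 CPM on days 2, 4 and 6 of their differentiation. The model g994, at bases 1 to 14916 of contig 346 and so at the start of its contig, had 1.39 and 1.93 CPM in the central zone, against 5.92 and 7.73 CPM in the middle part. Its log2 fold change was -1.97 ± 0.35 (SE, n = 2 each, edgeR adjusted p = 0.031), and its groups did not overlap. Each of these calls was lost in 5 of the fits that leave out 1 library, with adjusted p between 0.0599 and 0.47 for g16271 and between 0.0664 and 0.213 for g994. Those fits lacked central zone replicate 1, middle part replicate 2 or either edge zone library for both models, and for g16271 also central zone replicate 2 and for g994 middle part replicate 3. Without middle part replicate 2 the log2 fold change of g16271 was -1.44.

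Some called models lay close together. Of the 47 higher models, 18 lay within 50000 bases of another, on 6 contigs. The matching share over all tested models was not computed, and some of the close models overlap each other and may share reads. A run was counted where 3 or more neighbouring loci were called with the same sign and at least a 4-fold difference, after models that overlap had been joined to 1 locus. By that count there was 1 run, of 6 loci at bases 620806 to 719526 of contig 159, all higher in the central zone. Models that were not tested are passed over in a run, and this span holds 7 models, of which 6 were tested.

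Together the 6 loci summed to 246.7 and 236.1 CPM in the central zone replicates, against 28.9 and 10.4 CPM in the middle part replicates. Each locus was higher in both central zone libraries than in either middle part library, with log2 fold changes from 2.97 to 3.86. The second locus, at bases 643898 to 645858, had 98.7 and 89.9 CPM in the central zone and 10.2 and 3.44 CPM in the middle part, a log2 fold change of 3.79 ± 0.43 (SE, n = 2 each, edgeR adjusted p = 0.00131). The first locus, at bases 620806 to 631561, had 43.0 and 43.8 CPM in the central zone and 4.13 and 1.91 CPM in the middle part. It gave the lowest adjusted p of the comparison, 0.000692 (edgeR, log2 fold change 3.86 ± 0.38, SE, n = 2 each). The last locus, at bases 717467 to 719526, had 17.7 and 15.3 CPM in the central zone and 3.06 and 1.12 CPM in the middle part. Its log2 fold change of 2.97 ± 0.38 (SE, n = 2 each, edgeR adjusted p = 0.00274) was the smallest of the run.

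Each outer library held more of these transcripts than any inner one. The 6 loci summed to 713.4 and 969.5 CPM in the edge zone, and to 307.3 and 340.3 CPM in the end part. All 6 were called higher in the edge zone than in the end part by edgeR, where 10.7% of all tested models were. As neighbours of nearly the same profile over the libraries, the 6 are not separate observations. The statoblast libraries held at most 0.553 CPM in sum, so the loci were near or at 0 in all 4 stages. In the 3 stages other than day 4 the sum was at most 0.128 CPM, below their floors of 0.384 to 0.633 CPM.

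**Figure D2:**
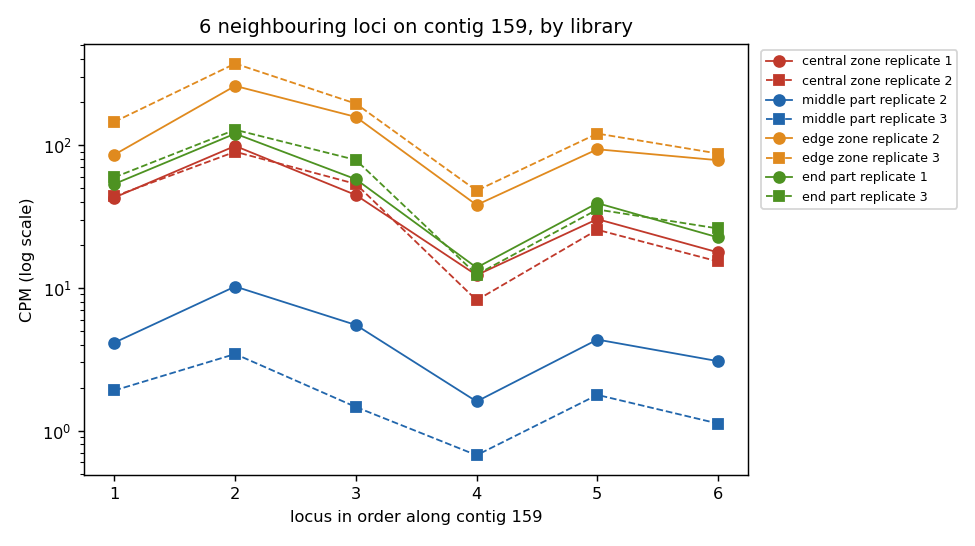
CPM on a log scale (vertical) of the 6 neighbouring loci of the called run, in order along the contig (horizontal), with 1 line per mature library. The lines keep nearly the same shape at different heights, with middle part replicates 2 and 3 lowest, central zone and end part libraries close together and edge zone replicates 2 and 3 highest.

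The other close calls were chosen for description after their values were seen. On contig 101, a stretch at bases 795579 to 841416 was bounded by fitted differences of at least 4-fold, called or not. Its 6 tested models thus reach 4-fold by choice, and 4 of them were called higher. Those not called had at most 31 counts in any of the inner libraries. The 6 models summed to 73.3 and 39.1 CPM in the central zone, against 11.6 and 7.94 CPM in the middle part. Here the edge zone, at 68.9 and 107.9 CPM, and the end part, at 82.1 and 57.1 CPM, overlapped each other. Another pair of called models lay at bases 871378 to 901400 of contig 39. A tested model between them was not called (log2 fold change 1.34, edgeR adjusted p = 0.249). Both of the pair overlap another model, so that their reads may belong to a partner. The first of the pair had 400.3 and 412.1 CPM in the central zone and 88.9 and 108.3 CPM in the middle part, a log2 fold change of 2.11 ± 0.31 (SE, n = 2 each, edgeR adjusted p = 0.00626). The second had 308.4 and 391.2 CPM in the central zone and 78.7 and 118.9 CPM in the middle part, a log2 fold change of 1.91 ± 0.31 (SE, n = 2 each, edgeR adjusted p = 0.0167). In both, the lower central zone library was above the higher middle part library by more than 2-fold. At bases 1557761 to 1614575 of contig 85, 2 of 7 tested models were called higher. The tested models between those 2 were not called, with log2 fold changes from -0.74 to 1.09.

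The models higher in the central zone were, for the most part, higher still at the edge. Over the 47, median levels were 23.7 and 30.5 CPM in the edge zone and 14.2 and 14.2 CPM in the end part, beside the 11.5 CPM of each central zone library and the 1.70 and 1.08 CPM of the middle part libraries. The edge zone had the highest group mean in 40 of the 47, the end part in 5 and the central zone in 2. The matching shares over all tested models were not computed. Medians over all tested models were 5.31 and 6.26 CPM in the edge zone and 9.53 and 7.44 CPM in the central zone. The middle part had the lowest in all 47, which the choice of these models on central zone and middle part values favours.

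Edge zone against end part is the comparison of the outer tissues, and shares no library with central zone against middle part. One fit gave both, so the outer libraries entered the filter and the spread by which the 47 were chosen. The model on contig 211, with no count in the middle part, did not pass the filter over the 4 inner libraries alone. Of the 47 models, all had a positive edge-over-end log2 fold change, with a median of 1.51, against 49% of all tested models. The edge zone was called higher in 32 of them (edgeR, 68.1%, against 10.7% of all tested models) and lower in 0, against 9.77% of all tested models, with 0 lower at an unadjusted p under 0.05 and 0 by DESeq2. These 32 make up 1.65% of the models called higher at the edge. Leaving out edge zone replicate 2 lowered the count to 11, against 0.69% of all models. With library totals alone as the scale, which moves the median edge-over-end log2 fold change of all models to -0.51, 41 of the 47 were positive and 21 were called higher, against 2.43% of all models. On that scale the edge-over-end calls over all models split into 440 higher and 4369 lower, against 1939 higher and 1767 lower with TMM scaling.

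**Figure D3:**
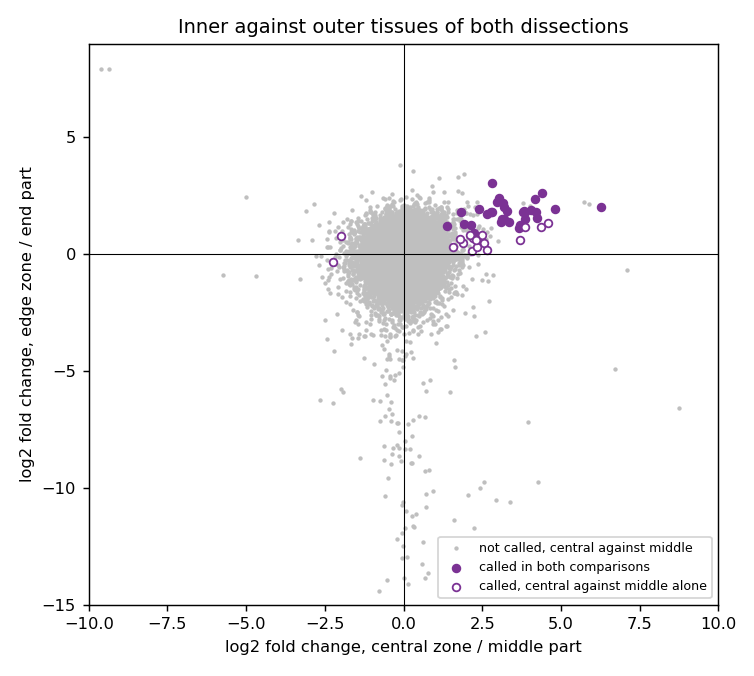
Log2 fold change of central zone over middle part (horizontal) and of edge zone over end part (vertical) for each of 18085 tested models. Purple points are the models called between central zone and middle part, filled where edge zone against end part was called too. The 47 on the right all lie above 0 on the vertical axis.

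Whether the inner difference differed from the outer difference was tested by the contrast of the 2 differences in the same fit. By edgeR, 310 models (1.71%) had a higher and 84 (0.464%) a lower log2 difference between central zone and middle part than between edge zone and end part. In the 310, median levels were 22.0 and 21.3 CPM in the central zone and 19.3 and 21.3 CPM in the middle part. The same models had 2.06 and 2.80 CPM in the edge zone and 21.5 and 19.2 CPM in the end part, so that the inner tissues were alike in their medians and the edge zone stood apart. The contrast that chose these models includes the edge zone, so the choice favours an edge zone that stands apart. In the 84, median levels were 7.89 and 6.71 CPM in the central zone, against 13.0 and 14.1 CPM in the middle part. There the edge zone had medians of 21.4 and 19.1 CPM and the end part 7.49 and 12.03 CPM. Of the 47 called models 8 passed this test, all higher, but the test includes the contrast that chose them. With library totals alone the test gave 1362 higher and 51 lower models. Without edge zone replicate 2 it passed 36 models, and without end part replicate 3 it passed 2944.

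When the spread was estimated from the 4 libraries of the comparison alone, more models passed, in particular lower ones. Of 17480 models, 239 were called (1.37%), 178 of them higher (1.02%) and 61 lower (0.349%) in the central zone. These included 46 of the 47 higher and both lower models of the fit over 8 libraries. The 178 had median levels of 18.5 and 13.7 CPM in the central zone and 4.81 and 5.36 CPM in the middle part, and a median log2 fold change of 1.60. The 61 had median levels of 7.07 and 9.04 CPM in the central zone and 21.9 and 24.6 CPM in the middle part, and a median log2 fold change of -1.51. Fewer of the lower models reached 4-fold, 8 of 61 against 55 of 178. Of the 178, 40 lay within 50000 bases of another, in 15 places, and of the 61, 4 did, in 2 places. The lists differ in size, and the matching share over all models was not computed.

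**Figure D4:**
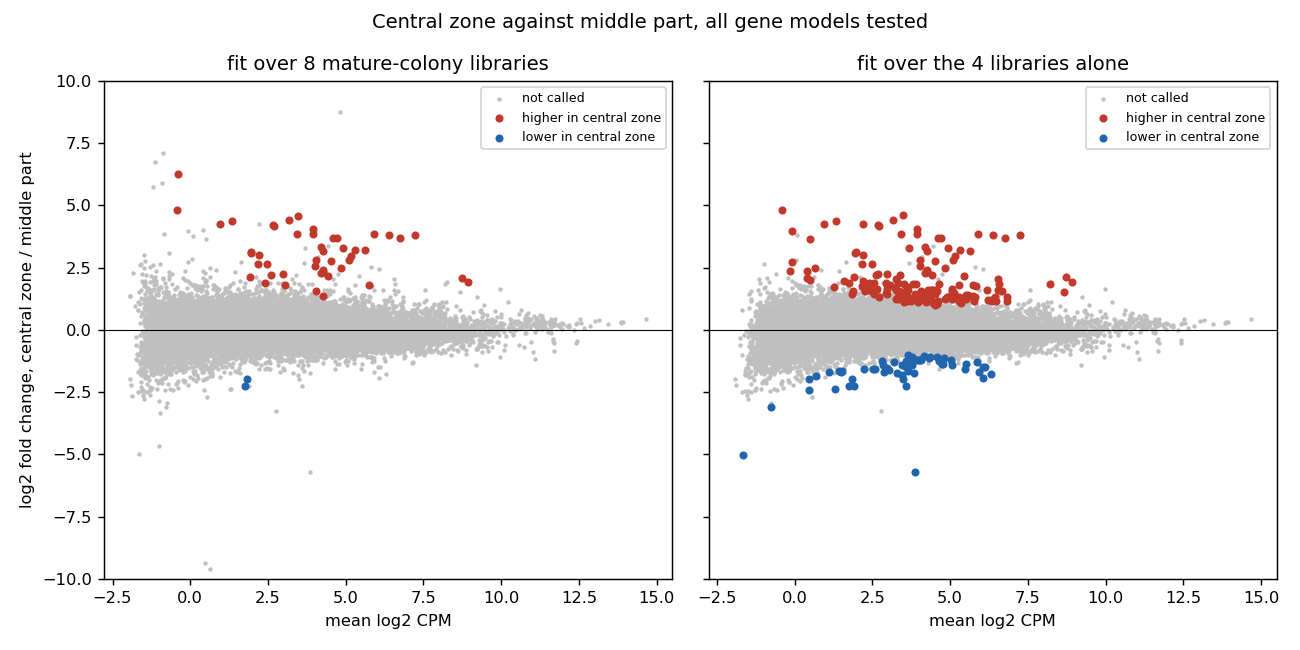
Log2 fold change of central zone over middle part (vertical) against mean log2 CPM (horizontal) for each gene model tested, over 8 mature libraries (left, 49 calls) and over the 4 libraries compared (right, 239 calls). Called models are red where higher and blue where lower in the central zone, and the blue points number 2 on the left and 61 on the right.

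The largest fall in that fit, at bases 1554058 to 1576972 of contig 63, is a model on which the fits differ. It had 0.501 and 0.921 CPM in the central zone, against 35.5 and 41.7 CPM in the middle part, with no overlap. The edge zone replicates held 11.3 and 0.127 CPM and the end part replicates 0.507 and 29.5 CPM, so that 1 library of each outer tissue was high and the other low. The log2 fold change was -5.73 with an adjusted p of 1.08e-05 in edgeR's fit over 4 libraries, and -5.72 with an adjusted p of 0.137 in edgeR's fit over 8. On contig 39, a pair of models lower in the central zone, at bases 2675208 to 2722989, summed to 76.4 and 93.4 CPM in the central zone and 238.6 and 294.1 CPM in the middle part. On contig 257, another such pair, at bases 46741 to 143934, summed to 13.7 and 19.2 CPM in the central zone and 50.6 and 50.0 CPM in the middle part. Neither pair was called over 8 libraries.

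The end part libraries took different sides in the list of lower models, and less so in that of higher ones. For the 178 higher models, end part replicate 1 had a median of 22.7 CPM and replicate 3 a median of 13.0 CPM, and replicate 1 was nearer to the central zone mean than to the middle part mean in 177 models and replicate 3 in 133. For the 61 lower models, the medians were 6.23 CPM in end part replicate 1 and 16.9 CPM in replicate 3. There, end part replicate 1 was nearer to the central zone in 60 models and replicate 3 in 17. The lists were chosen on central zone and middle part values, so these counts are a description of the end part libraries. Median levels at the edge were 17.1 and 20.4 CPM for the 178 and 7.30 and 6.38 CPM for the 61, nearer to the central zone medians than to those of the middle part in both lists.

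**Figure D5:**
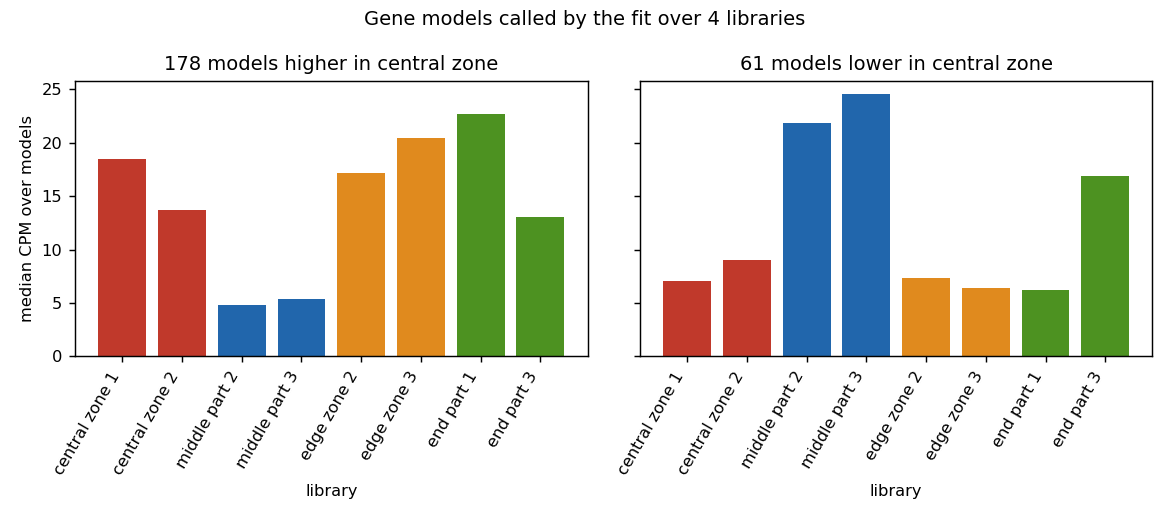
Median CPM per mature library (bars) over the 178 models higher (left) and the 61 models lower (right) in the central zone by the fit over 4 libraries. The 2 middle part bars are the lowest on the left and the highest on the right, and end part replicate 1 and replicate 3 differ most on the right, at 6.23 and 16.9 CPM.

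Set beside edge zone against end part, each fitted on its own 4 libraries, 56 of the 178 higher models were also called higher at the edge. That is 31.5% of the 178, where 9.87% of all models were called higher at the edge, and 3.29% of the models higher at the edge. Another 2 of the 178 were called lower at the edge, where 11.3% of all models were. Of the 61 lower models, 6 were lower and 2 higher at the edge. In statoblasts the 178 had medians of 14.5, 18.1, 21.9 and 17.5 CPM from the frozen stage to day 6, and the 61 had medians of 0, 0, 0.184 and 0.256 CPM, below the floor of 3 counts in each stage. In the frozen stage 38 of the 61 had no count, against 45 of the 178 and 27.8% of all models in that fit.

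Near absence was counted where a group mean was under 0.5 CPM and the other group mean at least 5 CPM. Near absent from the middle part were 6 models, and none was near absent from the central zone. Of the 6, the models on contig 70 (g21524), on contig 8 at bases 5583180 to 5594247 and on contig 101 at bases 796513 to 799737 were present in both central zone libraries and were called. The contig 8 model had 8.22 and 3.59 CPM in the central zone and 0.457 and 0.158 CPM in the middle part. The other 3 rested on central zone replicate 2. Of these, the models on contigs 111 and 92 did not pass the filter on low counts and were not tested, and the model on contig 21 was not called. The model at bases 563798 to 564890 of contig 21 had 0.403 CPM in central zone replicate 1 and 183.9 CPM in replicate 2, against 0.291 and 0.158 CPM in the middle part. Without central zone replicate 2, 3 models were near absent from the middle part, and without middle part replicate 2 there were 12. Near absent from the central zone was 1 model without central zone replicate 1, and 2 models were without middle part replicate 3.

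The central zone replicates differed from each other in a further set of loci. Over the 13503 models, 11 were at least 16-fold higher in central zone replicate 2 than in replicate 1, and none was the other way round. Median levels of the 11 were 14.3 CPM in central zone replicate 1 and 273.3 CPM in replicate 2, against 113.5 and 58.9 CPM in the middle part, with the middle part mean between the central zone replicates in all 11. The same models had medians of 0.0163 and 0.02 CPM in the edge zone and 54.0 and 64.1 CPM in the end part. None of the 11 was called between central zone and middle part by edgeR or DESeq2, and 3 had an unadjusted p under 0.05 in edgeR. Over all tested models, edgeR called 0.271%, and 16.1% had an unadjusted p under 0.05. The 11 were chosen for a gap between the central zone replicates, which works against a call, so these counts are a description. A stretch of 13 tested models at bases 444147 to 648715 of contig 32, the longest run of loci lower in the edge zone than in the end part, also differed between the central zone replicates, and holds 4 of the 11. Its models summed to 1075 and 9271 CPM in the central zone and 4504 and 6417 CPM in the middle part, against 0.889 and 1.74 CPM in the edge zone and 1347 and 2022 CPM in the end part. Of the 13, 0 were called between the inner tissues by edgeR or DESeq2 and 0 had an unadjusted p under 0.05 in edgeR, and the central zone sums lay on both sides of the middle part sums.

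The mitochondrial genes, which encode core subunits of the respiratory chain and ATP synthase and the 2 ribosomal RNAs of the organelle, did not pass the test. Of the 16 models, all on contig 594, 0 were called by edgeR or by DESeq2, and neither tool gave any of them an unadjusted p under 0.05, the lowest in edgeR being 0.208. All 14 protein-coding models had positive log2 fold changes, from 0.22 to 0.57 with a median of 0.37, but without middle part replicate 3 the median was -0.07 and 8 of the 14 were negative. By complex, medians were 0.40 for the 8 models of complex I (NADH dehydrogenase), 0.27 for cob of complex III, 0.32 for the 3 of complex IV (cytochrome c oxidase) and 0.39 for the 2 of complex V (ATP synthase). Middle part replicate 3 was the lowest of the 4 libraries for all 14. MT_cox1, the catalytic subunit of cytochrome c oxidase, had 37160 and 27490 CPM in the central zone and 27820 and 20860 CPM in the middle part, a log2 fold change of 0.43 ± 0.33 (SE, n = 2 each, edgeR adjusted p = 0.527). MT_cob, the cytochrome b of complex III, had 16560 and 17650 CPM in the central zone and 18670 and 10490 CPM in the middle part, with overlapping groups. The large ribosomal RNA, MT_rrnL, had 5178 and 4987 CPM in the central zone and 5446 and 5074 CPM in the middle part, with a log2 fold change of 0.00.

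Mitochondrial protein genes took 14.4% and 14.3% of the counts in the central zone, against 14.4% and 8.81% in the middle part. The means were 14.4% ± 0.00436 in the central zone and 11.6% ± 3.96 in the middle part (SD, n = 2 each; exact permutation test, two-sided p = 1, where 0.333 is the smallest the design allows). Without middle part replicate 3 the difference was -0.0463 percentage points.

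Most models were measured closely enough to limit a difference to 4-fold, and fewer to 2-fold. The intervals rest on the spread over the 8 mature libraries. The 95% interval of the log2 fold change lay within 2-fold either way for 7919 models (43.8%) and within 4-fold for 16450 models (91.0%). Among models with a mean log2 CPM from 3 to 5, 63.1% lay within 2-fold, and below a log2 CPM of 1, 4.59% did, with a median SE of 0.51 on the log2 scale. Of the 100 nuclear models with the highest mean CPM in the 4 libraries, 0 were called by edgeR over 8 libraries and 1 by DESeq2, 7 had an unadjusted p under 0.05 in edgeR, and their log2 fold changes ran from -1.18 to 0.78. Beyond the called models, 64 higher and 55 lower models had fitted differences of at least 4-fold without passing the test.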

How the data were processed

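Polyadenylated RNA was enriched with oligo-dT beads and made into libraries with a directional kit, per the labels' protocols. Some were run paired-end on a HiSeq and others single-end on a NextSeq instrument, and which were which is not stated. Per the submitters' processing notes, the tools included HISAT2 2.1.0 and featureCounts 1.5.1. No source used here gives the assembly, the annotation or the strand setting. The table as the authors deposited it gives, for each library, unnormalized expected counts of the gene models. Fractions were seen in the values themselves. No reference sequence was used.

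Expected counts were rounded, which moved no library total by more than 0.00408%, and tested in edgeR 4.0.16 (R 4.3.3) with filterByExpr by group, TMM factors, the quasi-likelihood F test (glmQLFit and glmQLFTest) and Benjamini-Hochberg adjustment at 0.05. Group means were fitted over the 8 mature libraries. SEs were derived from the fit as the size of the log2 fold change over the root of its F value, since edgeR gives none. DESeq2 1.42.0 was an alternative. CPM values refer to library totals, and the replicates of each group differed by more than sampling noise (chi-square over models, 51.9 to 67.1 per model in the groups compared). Python 3.11.15, pandas 2.3.3, numpy 2.4.6, scipy 1.17.1 and matplotlib 3.10.9 gave descriptions, exact tests and figures.

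The labels speak of 2 biological replicates and not of separate colonies, so the spread behind each p-value is that between these libraries and may be technical. Identifiers are named for the 2 largest rises and the 2 largest falls, among called models of non-overlapping groups whose mean log2 CPM reached 1. Runs had at least 3 called loci. The rule for describing a region asked for a run of at least 5 loci, and the other regions were chosen after their values were seen. The comparison and its lists were chosen with earlier results of these data known.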

Additional observations from a re-analysis of the deposited data

Results flagged for a closer look

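The difference between central zone and middle part differed from that between edge zone and end part in 394 models by edgeR's test of the contrast of both differences. Among the named models, the contrast was 3.24 on the log2 scale for g21524 (central over middle 4.60, edge over end 1.35, edgeR adjusted p = 0.0497). It was -2.75 for g994 (central over middle -1.97, edge over end 0.78, edgeR adjusted p = 0.0129). Both models were named for a large difference between central zone and middle part. That difference is part of the contrast, so the choice favours a large value. Groups of 2 libraries were too small for a search for single deviating libraries.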

How the results depend on the processing

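The 49 calls between central zone and middle part became 290 with DESeq2, 889 with no filter on low counts, 239 with the 4 libraries alone, 32 among models that overlap no other and 23 at an adjusted p under 0.01. The fits that leave out 1 library each gave 22 to 460. The contrast of the inner with the outer difference passed 394 models, and 1504, 1413, 2217 and 88 with DESeq2, with library totals alone, with no filter and at 0.01, and 36 to 2944 with 1 library left out. Edge zone against end part gave 3706 calls, 1047 at 0.01 and 348 to 4020 with 1 library left out. The 1 run became 3 with no filter, 2 with the 4 libraries alone and 1 to 3 with 1 library left out. Of the 3 runs without central zone replicate 2, 1 was higher and 2 were lower in the central zone. Models near absent from the middle part numbered 15 at a limit of 1 CPM and 3 to 12 with 1 library left out, against 6, and those near absent from the central zone 1 and 0 to 2, against 0. The cause of these moves was not tested.

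The replicate numbers were not taken to pair the samples, since the labels tie them to no colony or batch and the 7 same-number correlations of deviations ran from -0.18 to 0.39. Within a dissection they were 0.25 (central and edge zone replicate 2) and 0.21 (middle and end part replicate 3). With the replicate block 95 models were called, 83 higher and 12 lower.

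The log2 fold changes of the 4 named models kept their sign throughout, at 3.68 to 10.53 for g21524, 3.27 to 5.11 for g29152, -2.75 to -1.44 for g16271 and -2.36 to -1.63 for g994 with 1 library left out. MT_rrnL turned to 0.00106 with no filter, 0.00026 with the 4 libraries alone and 0.16 with the replicate block, under which MT_cox3 turned to -0.0253. With 1 library left out, ranges were -0.11 to 0.11 for MT_rrnL, -0.10 to 0.44 for MT_rrnS, -0.10 to 0.72 for MT_nad4l, -0.13 to 0.82 for MT_cob, -0.0697 to 1.11 for MT_nad6, -0.15 to 1.27 for MT_nad3_0, -0.10 to 1.41 for MT_atp8, -0.0794 to 0.85 for MT_atp6, -0.19 to 1.11 for MT_cox3 and -0.0785 to 0.59 for MT_cox2. The negative ends came without middle part replicate 3, except for MT_nad3_0, which was lowest without central zone replicate 2. The mitochondrial share differed by -0.0463 to 5.55 percentage points with 1 library left out, a setting chosen after seeing the data. At 2 libraries a group, models with few counts have wide intervals.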
